A study of Mus musculus with 3 samples.

Results

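T, natural killer (NK) and innate lymphoid cells were a rare minority of cultures that had been grown to make dendritic cells. The cells were chosen by marker transcripts. Each was a cell barcode with 1000 or more unique transcript counts (UMIs), 500 or more genes and no more than 10% of UMIs from mitochondrial genes. It also held at least 1 UMI of 3 or more of 10 marker genes, namely Cd3e, Cd3g, Trac, Nkg7, Gzma, Ncr1, Klrb1c, Il7r, Thy1 and Gata3. Barcodes with more than 1 UMI of Siglech, a surface lectin of plasmacytoid dendritic cells, were left out, as were barcodes with any UMI of Fscn1 or Ccl22, genes of mature dendritic cells. The rule found 107 of the 28903 barcodes past the filters on UMIs, genes and mitochondrial share. These 107 barcodes are called lymphoid barcodes here. The 10 marker levels chose them and are given only as a description.

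The study asked how glutamine bears on type 1 conventional dendritic cells, as its title states. Cultures from wild-type C57BL/6 mice were grown with FLT3L, the cytokine that drives dendritic cell development, and the cells were scraped from the plates for droplet sequencing of transcript 3′ ends. The control library came from cells differentiated in 2 mM glutamine. Another came from cells in 50 µM glutamine, and the last from cells in 2 mM glutamine and 1 µM DON, a glutamine analogue that blocks enzymes which use glutamine. There was 1 library in each group, so no difference below has a replicate check or a test. The intervals are exact 95% intervals that cover counting error only, and the spread between cultures is unknown.

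T cells carry an antigen receptor made of alpha and beta or of gamma and delta chains, held at the surface by the CD3 subunits. NK cells lack that receptor and kill through granzymes and activating receptors such as NKp46, the product of Ncr1. Innate lymphoid cells share transcription factors such as GATA3 and the interleukin-7 receptor with T cells, and they secrete cytokines without an antigen receptor. All of these descend from lymphoid progenitors of the bone marrow, which also give rise to a share of plasmacytoid dendritic cells.

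Lymphoid barcodes were shallow in the 50 µM glutamine library. Their median depth was 6868 UMIs in the control library, 3221 in the 50 µM library and 6279 in the DON library, beside 6890, 7909 and 8145 UMIs over all barcodes past the filters. Their UMIs summed to 264422, 158351 and 359817 in the same order. Between 19 and 31 barcode sequences occurred in both libraries of a pair, and none of them was a lymphoid barcode. A doublet caller marked 1 of 32, 0 of 29 and 4 of 46 lymphoid barcodes.

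Lymphoid barcodes numbered 32 of 10367 in the control library, 29 of 9649 in the 50 µM library and 46 of 8887 in the DON library. The shares were 0.309% (interval 0.211 to 0.435%), 0.301% (0.201 to 0.431%) and 0.518% (0.379 to 0.690%). The DON share was the highest, and its interval overlapped both others. After each barcode was thinned to 2000 UMIs, the shares were 0.179%, 0.118% and 0.219% of the 10061, 9287 and 8690 barcodes deep enough. The order was kept, and the thinned intervals of all 3 libraries overlapped (lowest bounds 0.106, 0.0591 and 0.132%, highest bounds 0.283, 0.212 and 0.341%). Without the exclusion by Siglech, Fscn1 and Ccl22 the counts were 60, 41 and 64, or 0.579%, 0.425% and 0.720%. The 28, 12 and 18 barcodes that the exclusion removed had median depths of 15623, 11618 and 12379 UMIs.

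**Figure D1:**
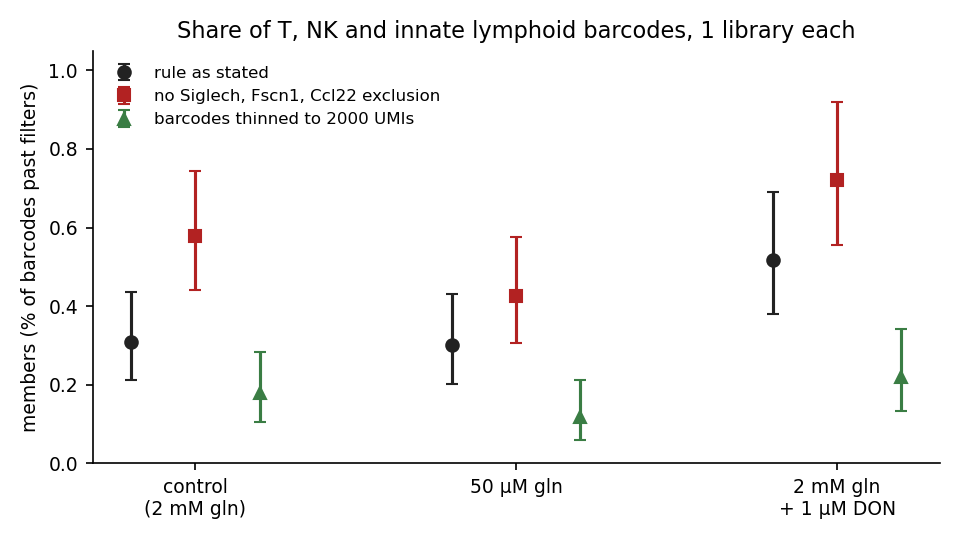
Share of lymphoid barcodes in each library (y axis, percent of barcodes past the filters) under 3 rules (x axis, library), with exact 95% counting intervals as bars. DON had the highest point under all 3 rules, at 0.518% with the rule as written, and the DON interval overlapped the control interval each time.

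Genes outside the rule gave these barcodes a T cell character. Beta chain constant genes (Trbc1 or Trbc2) had a UMI in 97 of the 107, beside 0.524% of other barcodes. Reads of Trbc1 and Trbc2 come from near-identical gene copies, on chr6:41538218-41539881 and chr6:41546730-41548352 of build GRCm38, so their split is uncertain. Trbc2 was at 495 CPM (counts scaled to an equal total per library) in control, 486 CPM in 50 µM glutamine and 403 CPM in DON lymphoid barcodes, against 2.22, 0.896 and 1.76 CPM in the other barcodes of the same library. The libraries lay within 1.23-fold of control for Trbc2. Cd3d, a CD3 subunit that the rule did not use, was at 348, 227 and 250 CPM, against 2.82, 0.819 and 1.35 CPM. Skap1, an adaptor of T cell receptor signalling, was at 132, 183 and 183 CPM, against 0.843, 0.426 and 0.562 CPM. Ms4a4b, a membrane protein of T cells, was at 563, 606 and 556 CPM, against 12.7, 13.7 and 13.1 CPM. The genes highest over other barcodes also included Gzmc, Trbc1, Il2rb, Ltb, Gimap3 and Cxcr6. At the other end stood Ngp, a neutrophil granule gene, and Ctsl, the protease cathepsin L. Ctsl was at 22.7, 18.9 and 22.2 CPM against 516, 350 and 533 CPM.

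The number of rule markers followed these outside T cell genes. Among barcodes past the exclusion with exactly 2 rule markers, just outside the rule, 22.5%, 30.2% and 24.5% had at least 2 outside T cell markers in control, 50 µM glutamine and DON. With exactly 3 rule markers, just inside it, the values were 90.9% of 11, 100% of 11 and 78.9% of 19 barcodes. Il7r, the interleukin-7 receptor chain, was the least selective of the 10, since 27.0%, 20.4% and 24.7% of the other barcodes held a UMI of it. Without Il7r among the markers, 78 of the 107 would have passed.

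Not all of the 10 markers were found in many barcodes. Cd3g, a CD3 subunit, had a UMI in 25 of 32 control, 22 of 29 low-glutamine and 31 of 46 DON barcodes. Cd3e, another CD3 subunit, had one in 19, 19 and 27 barcodes, and Trac, the alpha chain constant gene, in 20, 17 and 23. Among NK genes, Nkg7, a granule membrane protein also made by cytotoxic T cells, had a UMI in 13, 16 and 21 barcodes. Ncr1 was found in 3, 1 and 9 barcodes, Klrb1c, which encodes NK1.1, in 1, 3 and 5, and Gzma, granzyme A, in 1, 1 and 0. Il7r was found in 26, 25 and 26 barcodes, Thy1, a surface glycoprotein of T and innate lymphoid cells, in 15, 13 and 28, and Gata3 in 9, 4 and 8.

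Sorted by their rule markers, 73 of the 107 held at least 2 of Cd3e, Cd3g and Trac, and these are called the T marker group. There were 22 in control, 22 in 50 µM glutamine and 29 in DON, or 68.8%, 75.9% and 63.0% of the lymphoid barcodes. A further 13 held at least 2 of the 4 NK genes and at most 1 of those T genes, with 3, 3 and 7 in the libraries. Another 15 held at least 2 of Il7r, Thy1 and Gata3 without reaching either mark, with 5, 2 and 8, and 6 barcodes had a mixed set. The NK marker group made up 9.38% (1.98 to 25.0%), 10.3% (2.19 to 27.4%) and 15.2% (6.34 to 28.9%) of the lymphoid barcodes, and these intervals overlapped.

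**Figure D2:**
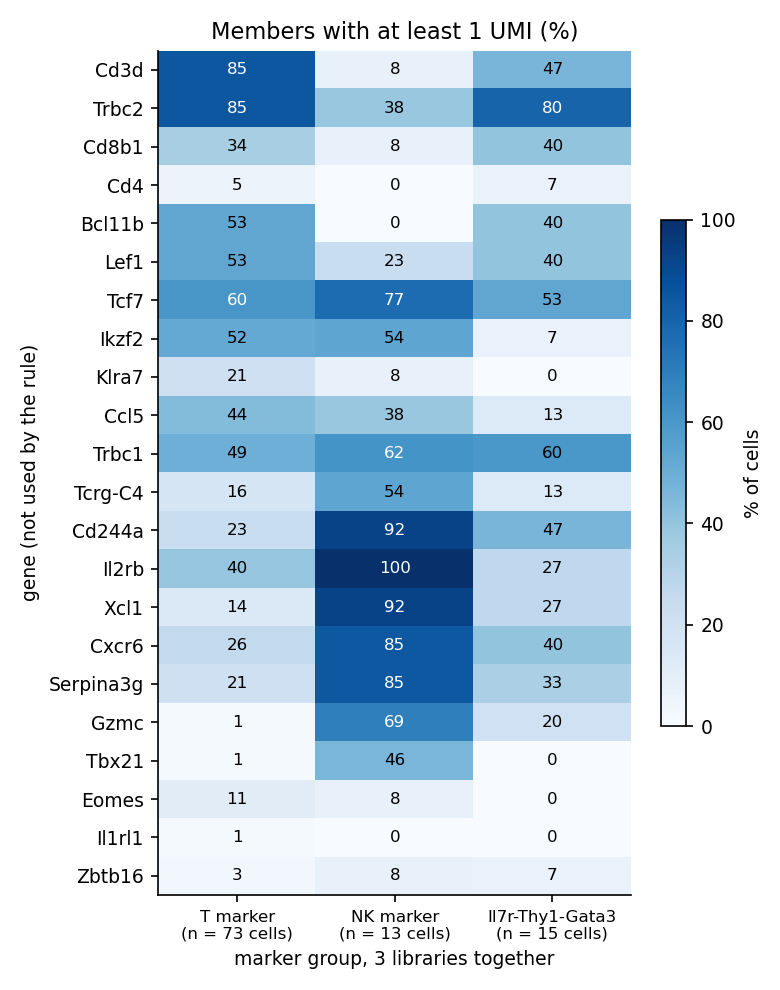
Share of barcodes with at least 1 UMI (colour and printed value, percent) of genes the rule did not use (y axis) in each marker group, the 3 libraries together (x axis). Cd3d and Trbc2 were each found in 62 of 73 barcodes of the T marker group, and Il2rb in all 13 of the NK marker group.

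Of the genes given here for the marker groups, Cd4, Cd8a, Lef1, Klra7, Foxp3, Cd244a and Ctsw were chosen after their values were seen. In the T marker group a beta chain constant gene had a UMI in 70 of 73 barcodes and a gamma or delta constant gene in 21, and 20 had both. Cd8a or Cd8b1, the CD8 coreceptor chains of killer T cells, had a UMI in 33 (45.2%) and Cd4, the helper coreceptor, in 4, with 0 holding both. By library CD8 was found in 11 of 22, 9 of 22 and 13 of 29. Bcl11b and Lef1, transcription factors of T cell commitment, each had a UMI in 39 of 73, and Tcf7, which acts with Lef1, in 44. Ikzf2, which encodes the factor Helios, had one in 38. Ccl5, a chemokine of effector and memory CD8 cells, was found in 32, and Klra7, an inhibitory Ly49 receptor whose reads may be shared with its near-identical family members, in 15. Foxp3, the factor of regulatory T cells, was at 0 of 107 lymphoid barcodes, which allows up to 2.80% of them with a UMI. Zbtb16, the factor of invariant NKT cells, had a UMI in 4 of 107.

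The NK marker group held some of the NK genes outside the rule together with T cell receptor genes. Il2rb, the shared receptor chain for interleukins 2 and 15, had a UMI in 13 of 13, and Xcl1, a chemokine that draws type 1 dendritic cells, in 12. Cd244a and Cd160, receptors of NK and killer T cells, were found in 12 and 10, and Ctsw, a protease of killer cells, in 11. Klrd1, the CD94 receptor chain, was found in 11, Il18r1, the interleukin-18 receptor, in 10 and Klrk1, the activating receptor NKG2D, in 8, and these too were chosen after their values were seen except Klrd1. Gzmc, a granzyme on chr14:56231441-56234656, had a UMI in 1 of 3 control, 1 of 3 low-glutamine and 7 of 7 DON barcodes of the group. Eomes, a factor of mature NK cells, was found in 1 of 13 and Tbx21, which encodes T-bet, in 6. Of the other NK list genes outside the rule, Prf1 and Klre1 were each found in 5 of 13, Klri2 in 2 and Klra4 and Klra8 in 0. A beta chain constant gene had a UMI in 9 of 13 and a gamma or delta gene in 9, while Bcl11b was at 0 and Cd3d in 1. Receptor constant genes were therefore present in barcodes that the markers alone would place with NK cells, and the group is named here only by its markers.

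The Il7r, Thy1 and Gata3 group held T cell genes, while genes of type 2 innate lymphoid cells were found in few of its barcodes or none. In the 15 barcodes of the Il7r, Thy1 and Gata3 group, Il1rl1, the interleukin-33 receptor of type 2 innate lymphoid cells, was at 0. Rora, a factor of type 2 cells, had a UMI in 4 of the 15, Icos, a costimulatory receptor, in 2, Il9r in 1 and Il2ra in 1. Il2ra was not particular to this group, with a UMI in 12 of 73 barcodes of the T marker group and 8 of 13 of the NK marker group. Klrg1, Arg1 and Calca, also on the type 2 list, are not given here. Tcf7 and Id2, factors that innate lymphoid cells share with other lymphocytes, each had a UMI in 8. Icos, Il9r and Il2ra were chosen here after their values were seen. The cytokine genes Il5, Il13, Il17a and Il22 and the growth factor gene Areg were at 0 in all 107 barcodes. A count of 0 speaks of barcodes with a UMI, not of cells that express a gene, and the shallowest lymphoid barcode had 1028 UMIs. Trbc2 had a UMI in 12 of the 15 and Cd3d in 7. A beta chain constant gene was found in 13 of the 15 and Cd8a or Cd8b1 in 6 (40.0%). This group too is named here only by its markers.

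Many lymphoid barcodes also held RNA of antigen-presenting cells. The 12 genes of the major histocompatibility complex (MHC) class II list, which present antigen on dendritic cells, took between 0 and 4.68% of a control barcode's UMIs. A break in these shares was seen, and a line at 0.5% was set after seeing it. Above the line were 12 of 32 control (37.5%), 7 of 29 low-glutamine (24.1%) and 14 of 46 DON barcodes (30.4%), beside 69.5%, 41.1% and 55.1% of other barcodes. In control the highest value below the line was 0.322% and the lowest above it 1.68%, and in each library 1 barcode lay between 0.3 and 0.7%. Barcodes above the line were deeper, with median UMIs of 11705, 10519 and 13074 against 4272, 2439 and 4437 below it. The 10 rule markers gave a mean of 9.83, 9.29 and 7.93 UMIs in a barcode above the line and 11.6, 9.32 and 10.9 in one below it. Above the line were 23 of 73 barcodes of the T marker group, 1 of 13 of the NK marker group and 7 of 15 of the Il7r, Thy1 and Gata3 group. Whether 2 cells in 1 droplet made these barcodes was not tested, beyond the doublet score, which marked 4 of the 33. Under the line were 20, 22 and 32 barcodes, and list values over these are given below for the lists described.

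**Figure D3:**
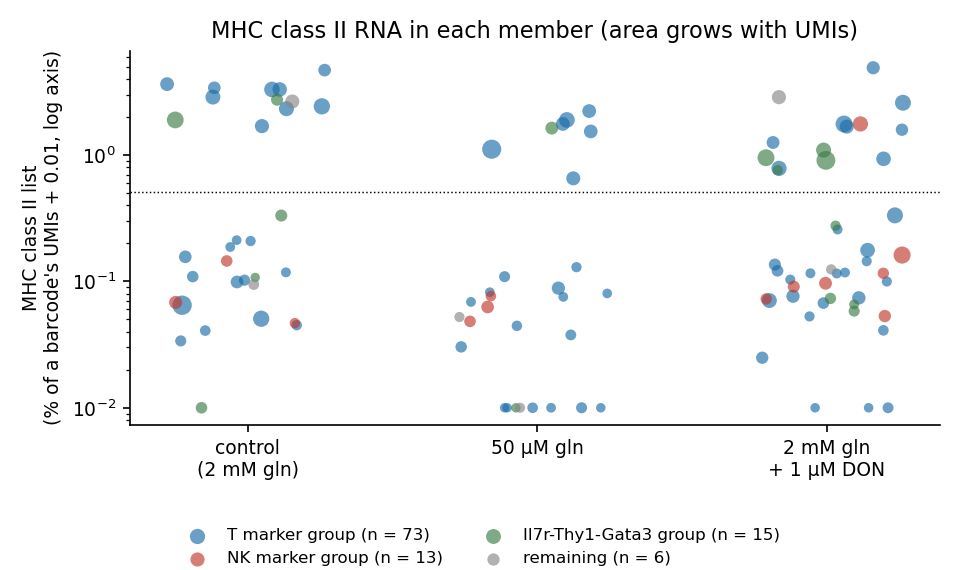
MHC class II list as a percent of each lymphoid barcode's UMIs plus 0.01 (log y axis), by library (x axis), coloured by marker group, with point area growing with depth. The dotted line marks 0.5%: 33 of 107 barcodes lie above it, and they include larger points.

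For gene levels, UMIs were summed over the lymphoid barcodes of a library. Barcodes above the MHC class II line held 144657 of the 264422 summed UMIs in control. They held 91847 of 158351 in 50 µM glutamine, from 7 barcodes, and 182890 of 359817 in DON. Log2 ratios were taken after adding 10 CPM, which draws the ratios of low genes toward 0, and genes reaching 50 CPM in at least 1 of both libraries were compared. A gene is called higher or lower at 2-fold, and a member of a gene list at 1.5-fold. Plain folds below are ratios of CPM without the added 10. A sum over so few barcodes can rest on 1 of them. Of 89 ratios of named genes past 2-fold, counted over both comparisons with control, 40 were no longer past it once the barcode with most UMIs of that gene was left out.

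Transcripts of glycolysis, the pathway that splits glucose to pyruvate and feeds growth of activated lymphocytes, were lower with 50 µM glutamine. Of 3544 genes compared with control, 272 (7.67%) stood 2-fold or more above it and 153 (4.32%) as far below, and the median log2 ratio was 0.07. That is 64.0% of the calls higher, against 45.2% under median of ratios scaling. Of the glycolysis list, 11 of 12 compared genes were at least 1.5-fold lower and 0 higher, with a median of -1.37, while 12.7% of all genes compared were that much lower and 19.9% that much higher. The list, which was chosen with earlier results of these data known, took 0.715% of the UMIs in control, 0.249% in 50 µM glutamine and 0.625% in DON. Barcode by barcode the median was 0.574% (0.0924 to 2.32%), 0.199% (0.0845 to 0.577%) and 0.403% (0 to 2.21%). The highest of the 29 low-glutamine barcodes was thus about level with the control median, and the ranges overlapped. Under the MHC class II line the list took 0.834%, 0.238% and 0.769%, and 12 of 14 genes were lower and 1 higher, beside 20.4% and 28.6% of all genes there. The same list was lower in the other barcodes too, at 0.613%, 0.337% and 0.491%, with 10 of 13 genes lower beside 4.78% of all genes and a median log2 ratio of -0.83.

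Pgk1, which encodes phosphoglycerate kinase, had 180 UMIs in control, 14 in 50 µM glutamine and 171 in DON lymphoid barcodes. That was 681, 88.4 and 475 CPM, found in 25 of 32, 6 of 29 and 29 of 46 barcodes. The low-glutamine level stood apart from both others, at 7.70-fold below control (4.47 to 14.4). Under the MHC class II line the counts were 112, 3 and 103. Mif, a cytokine gene that the list also holds, had 268, 33 and 346 UMIs, or 1014, 208 and 962 CPM, 4.86-fold lower in 50 µM glutamine (3.38 to 7.21). Gapdh had 537, 119 and 666 UMIs, or 2031, 751 and 1851 CPM, 2.70-fold lower (2.21 to 3.32). Ldha, which makes lactate from pyruvate, had 167, 47 and 229 UMIs, 2.13-fold lower (1.53 to 3.01). Aldolase A (Aldoa) was 3.14-fold lower (2.16 to 4.67), with 178, 34 and 201 UMIs. Aldoc, the C form of the same enzyme, had 20, 1 and 6 UMIs. Gpi1, the second enzyme of the pathway, was the 1 compared gene short of 1.5-fold, at 374, 278 and 322 CPM. Pgk1, Mif and Gapdh were within 1.43-fold of control in DON.

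**Figure D4:**
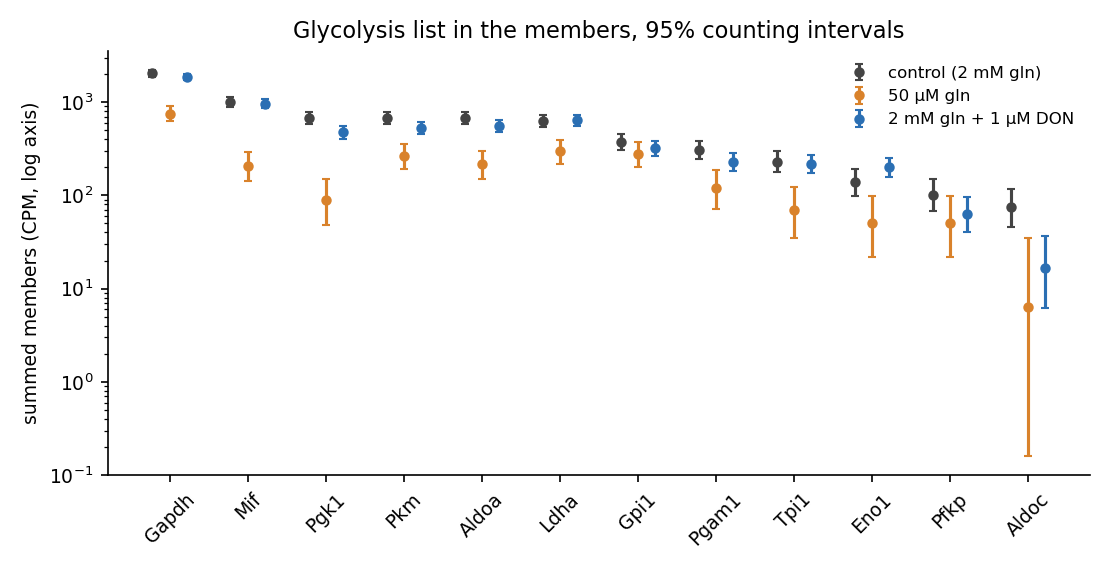
Level of each glycolysis list gene in summed lymphoid barcodes (log y axis, CPM) by library, with exact 95% counting intervals as bars. For Pgk1 the low-glutamine point (88.4 CPM) lies far below control (681 CPM) and DON (475 CPM), and for Gpi1 the points lie close together.

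Since these genes were lower together, their promoters were searched for ACGTG, the core of the site bound by hypoxia-inducible factors, on both strands in the 250 bases before each annotated start (RefSeq, GRCm38.p6). Matches are in capitals, and CACGTG counts as a match on each strand. Pgk1 and Mif are shown for their ratios, and Ldha for the most matches on the list.
Pgk1, chrX:106186850-106187099, plus strand: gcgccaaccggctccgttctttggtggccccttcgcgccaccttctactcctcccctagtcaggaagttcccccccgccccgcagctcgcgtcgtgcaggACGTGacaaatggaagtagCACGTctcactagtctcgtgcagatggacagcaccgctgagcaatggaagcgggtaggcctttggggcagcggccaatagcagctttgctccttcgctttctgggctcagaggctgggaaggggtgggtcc
Mif, chr10:75860278-75860527, minus strand: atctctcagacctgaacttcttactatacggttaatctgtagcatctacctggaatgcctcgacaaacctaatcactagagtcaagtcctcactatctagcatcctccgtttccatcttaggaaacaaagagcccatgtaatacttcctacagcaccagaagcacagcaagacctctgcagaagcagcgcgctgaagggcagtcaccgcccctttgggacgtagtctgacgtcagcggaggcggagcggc
Ldha, chr7:46845554-46845803, plus strand: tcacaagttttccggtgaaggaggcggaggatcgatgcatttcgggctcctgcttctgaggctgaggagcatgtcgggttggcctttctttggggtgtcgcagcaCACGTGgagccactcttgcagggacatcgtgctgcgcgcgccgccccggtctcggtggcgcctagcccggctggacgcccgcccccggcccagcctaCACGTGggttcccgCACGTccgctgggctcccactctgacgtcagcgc
The Pgk1 window held 2 matches, the Mif window 0 and the Ldha window shown 5. Ldha had 2 annotated windows, of which only 1 held a match, and the one with the most matches is shown. At least 1 window of 5 of the 12 compared genes held a match, beside 18.5% of 27025 genes. A match is a description of letters, and no use of any site was tested. The list of hypoxia factor targets had 3 of 7 genes lower and 1 higher in 50 µM glutamine, with a median of -0.27, and 3 of 6 lower in DON, with a median of -0.58. Of all genes compared, 12.7% were lower and 19.9% higher in 50 µM glutamine. In DON 6.92% were lower and 10.1% higher.

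Genes of DNA replication were lower in 50 µM glutamine lymphoid barcodes and higher in the remaining barcodes of that library. Of 18 compared S phase genes, 8 were at least 1.5-fold lower and 0 higher, with a median of -0.45, beside 12.7% and 19.9% of all genes. In the other barcodes 15 of 17 were higher, with a median of 0.70, beside 5.66% of all genes. Mcm6, a subunit of the replicative helicase, had 33, 5 and 50 UMIs in control, 50 µM glutamine and DON, 3.95-fold lower in 50 µM glutamine (1.53 to 12.97). Hells, a chromatin remodeller of dividing cells, had 26, 5 and 25, and Uhrf1, which keeps DNA methylation through replication, had 19, 3 and 21. Dut, which keeps uracil out of DNA, had 81, 23 and 118, and Pcna, the replication clamp, had 46, 14 and 66. Without the control barcode that held most of the gene, Hells was 2.54-fold lower (0.917 to 8.70) in 50 µM glutamine. Uhrf1 was then 2.78-fold lower (0.763 to 15.2) and Pcna 1.48-fold (0.764 to 3.01), so these 3 intervals took in 1. Those of Mcm6, at 3.07-fold (1.14 to 10.3), and Dut, at 1.95-fold (1.20 to 3.28), did not. Over all lymphoid barcodes 50 µM glutamine was the lowest of the 3 libraries for these genes. Under the MHC class II line, however, the list took 0.286% of the UMIs in control, 0.167% in 50 µM glutamine and 0.175% in DON, so both other libraries lay below control. There 15 of 21 genes were lower and 1 higher in 50 µM glutamine, with a median of -0.76, beside 20.4% and 28.6% of all genes there. The median barcode, however, gave the list 0.0722% of its UMIs in control and 0.0703% in 50 µM glutamine. The direction also rested on the exclusion, since without it the list's median was 0.19. Phgdh, the first enzyme of serine synthesis, had 24, 4 and 17 UMIs and was 3.59-fold lower in 50 µM glutamine (1.23 to 14.2), or 2.88-fold without the control barcode that held most of it, with an interval that then took in 1, and its log2 ratio in other barcodes was 1.66. The differences between lymphoid and other barcodes were not tested.

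Among the lowest ratios in 50 µM glutamine were those of several genes absent or nearly absent there. Lta, lymphotoxin alpha, had 20, 0 and 36 UMIs, 3.99-fold lower in 50 µM glutamine than control when 0 is taken as 3 counts. That fold leaves out the counting error of the control. Of the 20 control UMIs, 15 were in 1 barcode, and without it the interval of the fold began at 0.560 and so took in 1. Xcl1 had 88, 13 and 299 UMIs, 4.05-fold lower than control (2.25 to 7.91), in 7 of 32, 6 of 29 and 14 of 46 barcodes. Of the 88 control UMIs 38 were in 1 barcode, and without it the fold was 2.36 (1.26 to 4.73). Without the exclusion its log2 ratio was -0.30. Ero1l, which forms disulfide bonds in the endoplasmic reticulum, had 17, 0 and 16 UMIs, 3.39-fold lower with 0 again taken as 3 counts. Without the control barcode that held most of Ero1l, the interval of its fold began at 1.75. Il2ra, the interleukin-2 receptor alpha chain of activated T cells, had 19, 3 and 44 UMIs. Plbd1, a lipase-like gene of myeloid cells, had 38, 0 and 21 UMIs and was at 0 in control barcodes under the MHC class II line, so all of its control counts came from barcodes above it. Nbdy had 14, 0 and 10 UMIs, Spint1 15, 0 and 9, and Kctd14 21, 1 and 19.

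Some lymphocyte genes were higher in 50 µM glutamine. The rule markers Nkg7, at 110, 322 and 206 CPM, and Il7r, at 269, 455 and 153 CPM, helped to choose the barcodes, so nothing is read from their levels. Txk, a kinase of T cell receptor signalling, had 15, 27 and 43 UMIs, or 56.7, 171 and 120 CPM, 3.01-fold above control (1.54 to 6.08). Il18r1, the interleukin-18 receptor, had 7, 16 and 17 UMIs, 3.82-fold above control (1.49 to 11.0). Bcl11b was at 83.2, 171 and 91.7 CPM, 2.05-fold above control (1.12 to 3.78), and 1.86-fold (0.993 to 3.51) without 1 barcode. The T marker list outside the rule was level, with 1 of 9 genes higher, 1 lower and a median of 0.07, and antigen receptor signalling had 2 of 11 higher, 2 lower and a median of 0.10. Of all genes compared, 19.9% were that much higher and 12.7% that much lower. Ccl5 was the most abundant of these genes, at 1002, 1187 and 756 CPM, within 1.33-fold of control.

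The highest ratios in 50 µM glutamine came from single barcodes. S100a9, a calcium-binding protein of neutrophils, had 5 control and 266 low-glutamine UMIs, of which 259 were in 1 barcode. S100a8, its partner, had 5 and 193, with 189 in 1 barcode, and the neutrophil marker list had 194 of its 201 UMIs in 1 barcode. Ly6d had 4 and 58, with 53 in 1 barcode, Cox6a2, a gene of plasmacytoid cells, 0 and 17, with 16 in 1 barcode, and Ccl9 0 and 13, with 12 in 1 barcode. The 7 plasmacytoid dendritic cell markers together were at 427, 916 and 525 CPM, with 55 of 145 low-glutamine UMIs in 1 barcode, and their part in these ratios was not tested. Rnf11, a ubiquitin ligase, was spread over more, with 9 UMIs in 9 of 29 barcodes against 1 in control. Lrrk2 and Slc25a37 each had 2 control and 11 low-glutamine UMIs.

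Lists of antigen presentation and interferon response had medians at least 1.5-fold below 0 in 50 µM glutamine. For counts over all lymphoid barcodes in this paragraph, the share of all genes compared was 12.7% lower and 19.9% higher. Under the 0.5% MHC class II line it was 20.4% lower and 28.6% higher. In other barcodes it was 4.78% lower and 5.66% higher. The MHC class II list had 6 of 12 genes at least 1.5-fold lower and 1 higher, with a median of -0.63, and its share of barcodes above the 0.5% line was lower as well. Under the line 4 of 6 were lower and 1 higher, with a median of -1.60. In other barcodes 11 of 11 were lower, with a median of -1.27, so the lower level was not particular to lymphoid barcodes. Cd74, the class II invariant chain, had 1962, 639 and 1405 UMIs, and H2-Ab1, a class II chain, 618, 164 and 488. In barcodes under the line those counts were 41, 8 and 85, and 16, 2 and 15. The type I interferon list had 4 of 5 compared genes lower and a median of -0.73, and under the line 1 of 4 lower and a median of -0.41. In other barcodes 4 of 6 genes of that list were lower, with a median of -0.64. Fdps and Idi1, enzymes of the mevalonate route to cholesterol, had 47, 6 and 56 and 16, 1 and 43 UMIs, while the cholesterol list had 3 of 7 lower and 1 higher, with a median of -0.42. Under the line that list had 1 of 5 lower and 1 higher, with a median of -0.14. The ATF4 target list, genes of the amino acid stress response, had 1 of 6 higher and 2 lower in lymphoid barcodes, with a median of 0.18, beside 6 of 10 higher and a median of 0.75 in other barcodes. Under the line 3 of 6 were higher and 3 lower, with a median of -0.33. The list for glutamine uptake and use had 1 of 9 higher and 3 lower. Ppat, which uses glutamine in purine synthesis, had 15, 3 and 17 UMIs, and Glul, glutamine synthetase, 5, 8 and 4.

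With DON, genes of killer cell granules and effectors stood higher than in control. Of 3280 genes compared, 86 (2.62%) stood 2-fold or more above control and 56 (1.71%) as far below, and the median log2 ratio was 0.05. Of the cytotoxic granule and effector list, 7 of 11 genes were at least 1.5-fold higher and 0 lower, with a median of 1.26, while 10.1% of all genes compared were that much higher and 6.92% that much lower. Under the MHC class II line 7 of 13 were higher, with a median of 1.19, beside 18.2% of all genes there. In the other barcodes the list had 0 of 5 higher and 3 lower, with a median of -0.75, beside 0.471% and 0.908% of all genes. The list took 0.281% of the lymphoid UMIs in control, 0.232% in 50 µM glutamine and 0.407% in DON. The median barcode, however, gave it 0.110%, 0.103% and 0.0918%, so the DON excess lay in a minority of barcodes. The 7 barcodes of the NK marker group in DON held 865 of the list's 1463 UMIs, and the 3 in control held 189 of 743. That group is set by rule markers, the granule genes Nkg7 and Gzma among them, so granule RNA in it is partly built in. It was 3 of 32 control and 7 of 46 DON barcodes, and the intervals of these shares overlapped (1.98 to 25.0% and 6.34 to 28.9%). Within the T marker group alone the median was 0.45, with 2 of 6 genes higher and 0 lower. Of all genes there, 15.9% were that much higher and 12.3% that much lower. Without the exclusion by Siglech, Fscn1 and Ccl22 the median was 0.19, so the size of the difference rested on that step. The part of group make-up in the difference was not tested.

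Gzmb, granzyme B, on chr14:56258838-56262260 in the same gene cluster as Gzmc, had 11, 0 and 62 UMIs in control, 50 µM glutamine and DON. It was found in 1, 0 and 6 barcodes, and 48 of the 62 DON UMIs were in 1 barcode. The DON level was 4.14-fold above control (2.16 to 8.72), but without that barcode it was 0.990 times control (0.417 to 2.41), and without the exclusion the log2 ratio was -0.040. Gzmc had 214, 65 and 413 UMIs in 3, 2 and 9 barcodes, with 110, 64 and 266 in the highest one, so each library's level was set by 1 or a few barcodes. Without the highest DON barcode Gzmc was 1.87-fold lower in DON than control (1.51 to 2.33). Xcl1, at 333, 82.1 and 831 CPM, was 2.50-fold higher in DON than control (1.96 to 3.20), with 119 of 299 UMIs in 1 barcode, and 1.59-fold (1.23 to 2.08) without it. Serpinb9, the inhibitor that protects killer cells from their own granzyme B, had 3, 3 and 29 UMIs in 3, 3 and 7 barcodes, 7.10-fold above control (2.20 to 36.4), or 4.15-fold (1.19 to 22.2) without the highest barcode. Its neighbour Serpinb6b, on chr13:32965209-32979067, had 2, 0 and 20 UMIs in 2, 0 and 6 barcodes. Tnfsf10, the death ligand TRAIL, had 4, 3 and 18 UMIs, in 11 of 46 DON barcodes. Ccl3, a chemokine, had 0, 0 and 38, with 34 in 1 barcode.

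**Figure D5:**
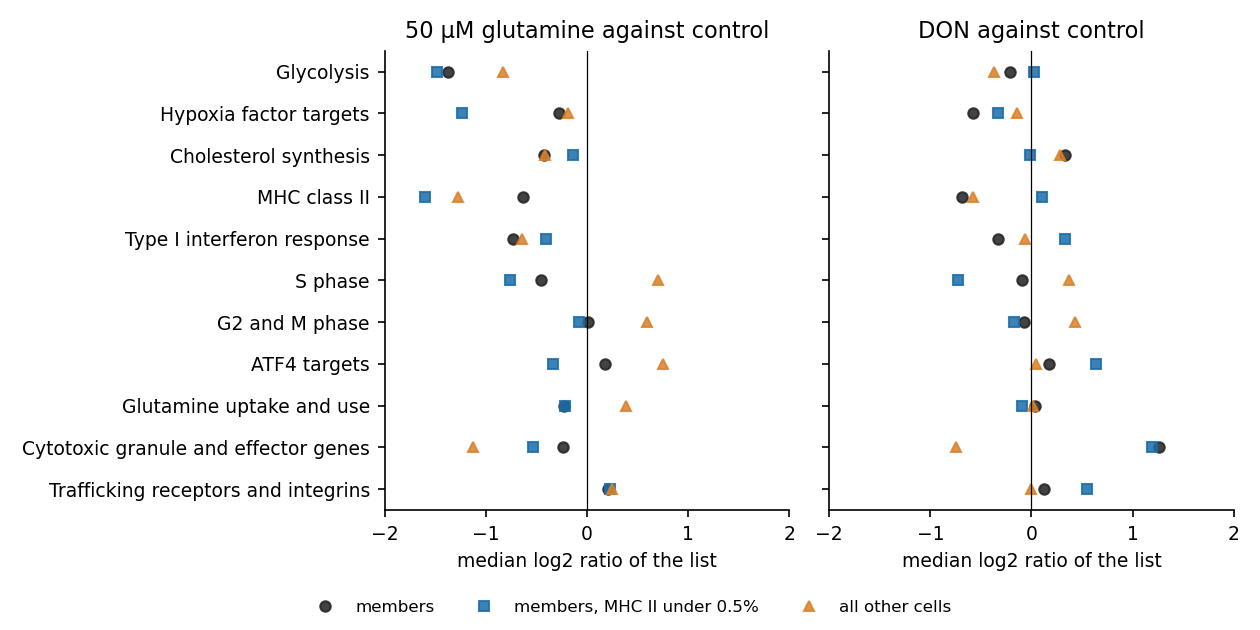
Median log2 ratio of each gene list (x axis) against control, in all lymphoid barcodes, in those under the MHC class II line and in other barcodes, for 50 µM glutamine (left) and DON (right). The glycolysis median lies at -1.37 at left and -0.21 at right, and the granule median at 1.26 at right.

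Of the NK receptor list, 3 of 8 genes were at least 1.5-fold higher in DON and 0 lower, with a median of 0.35. Of all genes compared, 10.1% were that much higher and 6.92% that much lower. Klrk1 had 16, 15 and 59 UMIs, or 60.5, 94.7 and 164 CPM, 2.71-fold above control (1.54 to 5.05) and in 7 of 32, 6 of 29 and 16 of 46 barcodes. The NK marker group held 4 of the control and 37 of the DON UMIs. In the T marker group Klrk1 had 7 UMIs in control and 13 in DON, or 35.7 and 62.8 CPM. Hcst, the adaptor that NKG2D signals through, was at 144, 177 and 258 CPM, 1.80-fold above control (1.22 to 2.70). Klrd1 was at 246, 303 and 183 CPM and Cd244a at 90.8, 88.4 and 77.8 CPM, so not every member stood above control. Ncr1 had 11, 2 and 38 UMIs in 3, 1 and 9 barcodes, but as a rule marker it helped to choose the barcodes, so nothing is read from its level. Cd8b1 was at 75.6, 56.8 and 150 CPM, 1.98-fold above control (1.17 to 3.50), or 1.71-fold (0.991 to 3.05) without 1 DON barcode. Shmt2, the mitochondrial serine enzyme, had 3, 1 and 20 UMIs, 4.90-fold above control (1.45 to 25.7).

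Several of the highest DON ratios rested on 1 barcode. Prss34, a basophil protease, had 1 control and 66 DON UMIs, all 66 in 1 barcode, and the basophil marker list had 88 of its 104 UMIs in 1 barcode. Penk, a precursor of opioid peptides, had 36, all in 1 barcode, and Pdgfa, a growth factor, 28, with 25 in 1 barcode. Errfi1, a feedback inhibitor of growth factor receptors, had 1 and 21 UMIs, with 12 in 1 barcode.

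Genes lower in DON were few. Ikzf2 had 126, 54 and 82 UMIs, or 477, 341 and 228 CPM, 2.09-fold lower in DON than control (1.57 to 2.80), or 1.79-fold (1.33 to 2.42) without 1 control barcode, in 17 of 32 and 18 of 46 barcodes. Itga4, the alpha4 integrin, was at 246, 335 and 119.5 CPM, 2.06-fold lower in DON (1.38 to 3.098), or 1.75-fold (1.15 to 2.68) without 1 control barcode. Trdc, the delta chain constant gene, had 17, 9 and 6 UMIs, with 7 of the control UMIs in 1 barcode. Without that barcode Trdc was 2.28-fold lower in DON, with an interval that took in 1 (0.752 to 7.65). Gamma or delta genes were found in 9 of 22, 6 of 22 and 6 of 29 barcodes of the T marker group. The control and DON intervals of these shares overlapped (20.7 to 63.6% and 7.99 to 39.7%). Ebpl, a gene related to a sterol isomerase, had 21, 3 and 4 UMIs, 7.14-fold lower (2.41 to 28.6). Mt1, metallothionein 1, had 30, 4 and 9 UMIs, with 21 of the control UMIs in 1 barcode, and Lrba, a gene of vesicle traffic, 25, 5 and 7, with 10 in 1 barcode. Rtp4, an interferon-induced gene, had 21, 6 and 8 UMIs.

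The share of all genes past 1.5-fold in DON was 10.1% above and 6.92% below control. The glycolysis list had 0 of 13 genes higher and 2 lower in DON, with a median of -0.21. In the T marker group alone 7 of 13 were lower and 1 higher, with a median of -0.59, beside 12.3% and 15.9% of all genes there. S phase genes had 1 of 18 higher and 3 lower and a median of -0.10 in all lymphoid barcodes. Under the MHC class II line 13 of 21 were lower and 0 higher, with a median of -0.73, beside 17.7% and 18.2% of all genes. The cholesterol list had 3 of 10 higher and 0 lower, with a median of 0.33. The MHC class II list had 6 of 11 genes lower and a median of -0.68 in all lymphoid barcodes. Under the 0.5% line the median was 0.11, the opposite direction, so the lower class II level in DON lay in barcodes above the line.

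DON and 50 µM glutamine were also set against each other, with 201 of 3689 genes (5.45%) 2-fold or more above in DON and 220 (5.96%) as far below. DON was higher in 47.7% of these calls, and in 62.7% under median of ratios scaling. Both comparisons with control share the control library, so their values stand side by side and no overlap between them is given. Pgk1 was 5.38-fold higher in DON than in 50 µM glutamine (3.12 to 10.0) and Mif 4.61-fold (3.22 to 6.81). Itga4 was 2.80-fold lower in DON (1.84 to 4.29).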

How the data were processed

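Droplet-based single-cell RNA sequencing (Single Cell 3′ v3, per the labels' protocols) gave 3 libraries, 1 for each group. The authors deposited raw UMI counts per gene and barcode, with no normalization. Cell Ranger 6.0.0 is named per the file headers and Cell Ranger 3.1.0 with build mm10 per the submitters' processing notes. How barcodes were called as cells is not given in the sources used here. UMI counts of low genes are coarse. The groups come from the labels' treatment. Whether each library came from 1 culture or animal is not given in the sources used here.

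Barcodes past at least 1000 UMIs, 500 genes and at most 10% mitochondrial UMIs were sorted by the marker rule, and summed counts were compared as CPM. Ratios used a pseudocount of 10 CPM over genes of at least 50 CPM, and intervals were exact (binomial for shares, Poisson or conditional binomial for counts, 95%). Where a group was at 0, a floor of 3 counts over the group was used. Doublets were kept, and were scored with Scrublet in scanpy 1.11.5 (Python 3.11.15, numpy 2.4.6, scipy 1.17.1, pandas 2.3.3) (score over 0.25). The ratio step was tested on simulated data. Of genes that share a symbol with another gene ID (40 cases), the symbol names the gene with the larger total and the other was kept under its ID. Promoters are RefSeq sequences of GRCm38.p6, and gene positions are those of GRCm38.

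The members and the 33 gene lists were chosen with earlier results of these data known. Genes named are the 10 rule markers, the 8 highest and 8 lowest ratios of each comparison with control among genes whose counting intervals do not overlap (without mitochondrial, ribosomal, haemoglobin, immunoglobulin, receptor variable and unnamed genes), up to 3 genes of each list by size of ratio, a fixed set of lymphocyte genes and the 10 genes highest over other barcodes. Further glycolysis, S phase and granule genes (Gapdh, Ldha, Pkm, Aldoa, Tpi1, Pgam1, Eno1, Gpi1, Pfkp, Dut, Pcna, Mcm3, Xcl1 and Gzmb in the DON comparison, Tnfsf10, Ctsw and Ccl5) and those stated in the text were added after their values were seen. Of the alternatives tried, 14 were planned and 4 were added after seeing the data. Genes under the named-gene rule that are not described in the text are not reported here.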

Additional observations from a re-analysis of the deposited data

Results flagged for a closer look

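Among the genes named here, 6 were flagged for a ratio of 50 µM glutamine to control opposite in direction in lymphoid and other barcodes. The difference was not tested, and the number of such genes among all genes compared is not given. On the log2 scale Dut was at -1.03 in lymphoid and 0.71 in other barcodes, Hells at -1.38 and 0.82, Mcm6 at -1.70 and 0.68, Pcna at -0.90 and 0.70, Uhrf1 at -1.50 and 0.78, and Phgdh at -1.51 and 1.66. Without the control barcode that held most of the gene, the lymphoid intervals of Hells, Pcna, Uhrf1 and Phgdh included the control level. Those of Dut and Mcm6 did not.

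For DON against control, Serpinb6b and Serpinb9 were flagged among the named genes in the same way, also without a test. Serpinb6b was at 1.9 in lymphoid and -0.79 in other barcodes, and Serpinb9 at 2.09 and -0.75. Without the exclusion by Siglech, Fscn1 and Ccl22, the lymphoid values of both were below 0, at -0.028 and -0.14.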

How the results depend on the processing

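No paired analysis was possible because each group has 1 library and the labels give no shared replicate numbers. In control, 50 µM glutamine and DON the share of lymphoid barcodes was 0.203%, 0.187% and 0.304% with 4 or more markers, 0.164%, 0.155% and 0.281% with 3 or more of the 7 markers without Il7r, Thy1 and Gata3, 0.695%, 0.746% and 1.07% with 2 or more markers, and 0.179%, 0.118% and 0.219% with each barcode thinned to 2000 UMIs. It was 0.579% in control and 0.720% in DON without the exclusion, and 0.193% and 0.360% under the MHC class II line. DON had the highest share of the 3 libraries under each of the 9 settings tried. The T marker group made up 85.7% in control and 88.9% in DON with 4 or more markers, 94.1%, 93.3% and 84.0% with the 7 markers, 34.7%, 37.5% and 36.8% with 2 or more markers, and 36.4% in 50 µM glutamine after thinning. After thinning, 0% of control barcodes were in the NK marker group.

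Counts of genes at least 2-fold apart depended strongly on the settings, so they describe these sums only. For 50 µM glutamine against control (425), DON against control (142) and DON against 50 µM glutamine (421) they were 696, 354 and 695 with 4 or more markers, 730, 391 and 711 with the 7 markers, 953, 406 and 884 for the mean of per-cell CPM, 1087, 447 and 977 for genes of at least 20 CPM, 1701, 700 and 1460 with no filter on low values, 100, 52 and 122 with intervals apart, 1056, 522 and 1019 under the MHC class II line, and 166, 42 and 171 without the exclusion. For DON against control the count was also 226 with a pseudocount of 1 CPM and 314 in the T marker group alone. Of genes 2-fold apart in that comparison, 60.6% were higher, and 48.3% by the mean of per-cell CPM. Of the 18 lists compared, 3 had a median at least 1.5-fold from 0 in 50 µM glutamine (6 with the 7 markers and 6 in the T marker group alone). In DON there were 2 such lists, and 4 with at least 2000 UMIs, 5 with the 7 markers, 4 by median of ratios scaling, 1 by the mean of per-cell CPM, 4 under the MHC class II line, 4 in the T marker group alone and 1 without the exclusion. The cause was not tested for any of these.

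The glycolysis median in 50 µM glutamine stayed between -1.55 and -1.28 over its 11 alternatives. The granule median in DON lay between 0.19 and 1.91, and the S phase median in 50 µM glutamine between -0.81 and 0.19. Of 89 ratios of named genes past 2-fold, 49 stayed past it without the barcode that held most of the gene's UMIs, and 73 kept their direction under every alternative run. Some log2 ratios changed direction, with no cause tested. For 50 µM glutamine these were Ndrg1 (-0.093) and Prtn3 (-1.42) under the MHC class II line, Idi1 (0.25), Uhrf1 (0.39) and Ncr1 (0.53) without the exclusion, Ncr1 (0.29) with 4 or more markers, and Ncr1 (0.059) and Gzma (-0.81) without the barcode that held most of the gene's UMIs. For DON they were the MHC class II median (0.11), Cenpf (0.094), Isg15 (0.017), H2-DMb2 (1.71) and H2-Eb1 (0.020) under the MHC class II line, Trdc (0.026), Prss34 (-0.72) and H2-DMb2 (0.45) with the 7 markers, H2-DMb2 (0.41) with 4 or more markers, and Serpinb9 (-0.14), Serpinb6b (-0.028), Ccnb1 (0.16), Cenpf (0.22) and Gzmb (-0.040) without the exclusion, and Prss34 (-0.46), Ccnb1 (0.027), Cenpf (0.29) and Gzmb (-0.012) without the barcode that held most of the gene's UMIs. Few barcodes limit all of these values: 3 counts were worth 11.3 CPM in control.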
